A study of Homo sapiens with 3 samples.

Results

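The genes described here build and finish the sugar chains of glycoproteins, glycolipids and proteoglycans. They were chosen by name: every probe set listed with 1 gene whose symbol starts with GALNT, GCNT, MGAT, B3GNT, B3GALT, B4GALT, FUT, ST3GAL, ST6GAL (which takes in ST6GALNAC), ST8SIA or CHST followed by a letter or digit, without genes on the opposite strand, and GGTA1. This gave 99 genes, read by 222 probe sets, of 19775 genes on the array. Of the 99, 84 are named as glycosyltransferases and 15 (CHST) are sulfotransferases, so that the whole is wider than glycosyltransferases, and 3 are listed as pseudogenes. Expression was measured in THP-1, an established human monocytic leukemia cell line, on 1 array from 1 culture of each condition. Cells were undifferentiated, labelled PMA 3 days (200 nM phorbol myristate acetate for 24 h and then 3 days without it) or labelled PMA 8 days (200 nM for 72 h and then 5 days without it). Phorbol myristate acetate (PMA) activates protein kinase C and turns these cells into adherent, macrophage-like cells. Medium with 2% serum was given 16 h before RNA was taken, a step that the protocol shared by all samples states without naming the conditions. Length of PMA exposure, time since PMA and time in culture differed together and cannot be told apart.

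Sugar chains are assembled in the Golgi by enzymes that each add 1 kind of sugar to 1 kind of acceptor, so that the set of enzymes a cell makes helps to set which chains it can carry. Chains on serine or threonine (O-glycans) are started by GALNT enzymes, chains on asparagine (N-glycans) are branched by MGAT enzymes, and both are extended with galactose and N-acetylglucosamine and capped with fucose, sialic acid or sulfate. On monocytes and granulocytes fucosylated and sialylated caps carry the Lewis antigens that selectins bind on the vessel wall, and macrophages make sulfated chondroitin chains on their proteoglycans.

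Signals are linear array units. Values below a floor of 149.8, the median of all signals, were raised to it before ratios were taken, and a gene entered a comparison of 2 arrays when either of them put its brightest probe set over that floor. Genes are called higher or lower from 2-fold upward. With 1 array per condition there is no test and no error between cultures, and the number of arrays limits the precision. Probe sets that read 1 gene gave the only measurable spread. It was taken from 5180 genes with several probe sets above the floor on all 3 arrays, so that dimmer probe sets do not enter it. Within these genes the SD between probe sets of log2 ratios over undifferentiated was 0.43 at PMA 3 days and 0.44 at PMA 8 days. Between the PMA times it was 0.27. Each array had a mean signal of 1000 after 2% was left out at either end. Of the macrophage markers CD14, CD163, MSR1, MRC1 and GPNMB, 5 of 5 were above the floor at both PMA times and 3 of 5 in undifferentiated cells. The progenitor markers ELANE, MPO, AZU1, PRTN3 and MYB summed to 1109 at PMA 3 days and 1695 at PMA 8 days, against 80307 in undifferentiated cells. Of 8 markers of lymphoid, epithelial, stromal, endothelial and platelet cells, 4 were above the floor on each array, not the same 4, and the sum of the 8 lay between 21323 and 23995, most of it PECAM1, which monocytes express too. Members moved under that sum. The collagen gene COL1A1 had 464, 2337 and 1828 signal units and the platelet gene PF4 81, 409 and 283 in undifferentiated, PMA 3 days and PMA 8 days cells. COL1A2, the other collagen gene, was above the floor in undifferentiated cells alone, with 157. CD3E, MS4A1 and EPCAM were below the floor on all 3 arrays. The part of a changed mix of cells in the results was not tested, and fewer cells of a kind and less RNA per cell cannot be told apart.

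By the brightest probe set, 70 of the 99 genes were above the floor on at least 1 array, 54 on all 3, and 29 on none. Statements below that a gene was or was not above the floor refer to that probe set. At PMA 3 days 11 of 69 compared genes were higher than in undifferentiated cells, and 9 were lower. Of the 13306 genes on the array that entered this comparison, 10.4% were higher and 10.7% lower. Shares past 2-fold over all genes, here and below, are of the genes that entered the comparison. At PMA 8 days the undifferentiated signal was exceeded by 2-fold in 11 of 69 genes and 10 were lower, beside 9.83% higher and 8.49% lower over all genes. Both directions together, 21.1% of all genes passed 2-fold at PMA 3 days and 18.3% at PMA 8 days. The shares among the glycan enzyme genes were thus 15.9% higher and 13.0% lower at PMA 3 days, and 15.9% higher and 14.5% lower at PMA 8 days. Between PMA 8 days and PMA 3 days, 0 of 66 genes were higher and 1 lower, beside 1.37% higher and 0.958% lower (2.33% together) over all genes. The median log2 ratio of the compared glycan genes was 0.00 at PMA 3 days and 0.16 at PMA 8 days over undifferentiated, beside -0.12 and -0.07 for all genes. Both comparisons with undifferentiated cells share that array. The balance of directions moved with the scaling of the arrays. Higher genes made up 55% of the calls at PMA 3 days as deposited, 32% after scaling to the poly-A labelling controls and 69.6% after the median of all genes was set to 0. At PMA 8 days these shares were 52.4%, 38.1% and 59.1%. Over all genes, higher genes made up 49.2%, 28.7% and 59.2% of the calls at PMA 3 days, in the same order. At PMA 8 days the all-gene shares were 53.7%, 44.98% and 59.4%. The balance over all genes thus moved with the scaling too, in the same directions.

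**Figure D1:**
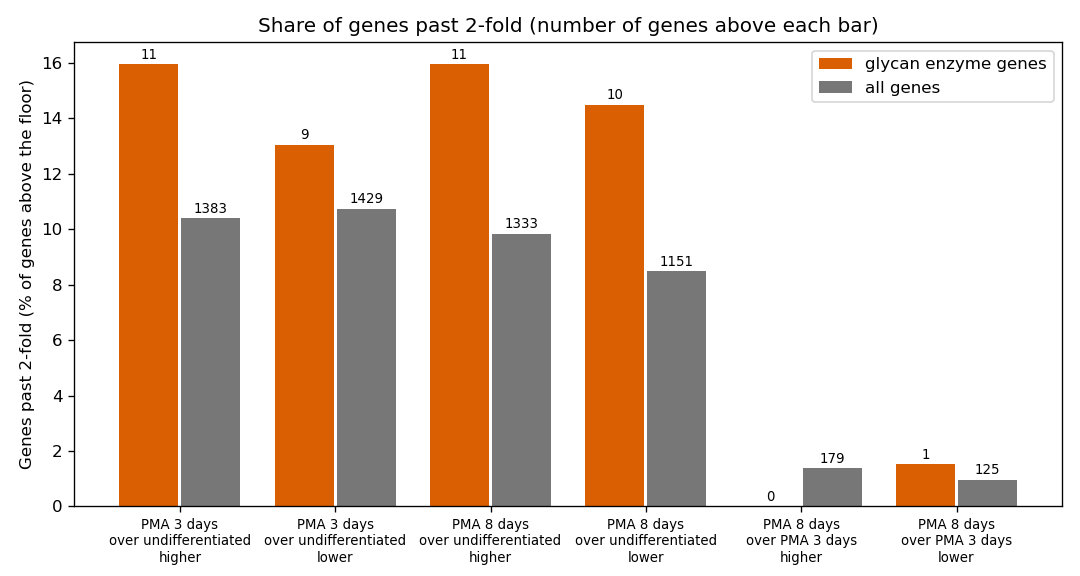
Share of genes past 2-fold, in percent of the genes above the floor on an array of the comparison, for the glycan enzyme genes (orange) and all genes (grey), with the number of genes above each bar. The orange bars against undifferentiated cells stand at 13.0% to 15.9% and the grey ones at 8.49% to 10.7%, and both are low between the PMA times.

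The largest difference among the 99 genes was that of a sulfotransferase. CHST15, which adds a further sulfate to already sulfated chondroitin, had 65 signal units in undifferentiated cells, 7074 at PMA 3 days and 7276 at PMA 8 days. Both PMA signals were far above the floor and the undifferentiated one below it, so that CHST15 was at least 47.2-fold higher at PMA 3 days and at least 48.6-fold higher at PMA 8 days. Its other probe set was dim on all 3 arrays (21 undifferentiated, 175 at PMA 3 days, 236 at PMA 8 days). It too was below the floor in undifferentiated cells, and gave log2 ratios of at least 0.22 and at least 0.66. CHST7, which sulfates chondroitin and N-acetylglucosamine, had 33 signal units in undifferentiated cells, 1201 at PMA 3 days and 1186 at PMA 8 days. It too was below the floor only in undifferentiated cells, and was at least 8.02-fold and at least 7.92-fold higher at PMA 3 and 8 days. CHST2, a sulfotransferase of selectin ligands, had 396, 1112 and 820 signal units in the order undifferentiated, PMA 3 days and PMA 8 days (2.81-fold and 2.07-fold higher). In the other direction CHST1, which sulfates galactose in keratan sulfate, had 313 signal units in undifferentiated cells, 126 at PMA 3 days and 176 at PMA 8 days. It was below the floor at PMA 3 days, at least 2.09-fold lower, and 1.78-fold lower at PMA 8 days, which is under the 2-fold set for a call. The other probe set of CHST1, near the floor, had 170, 109 and 173 signal units and log2 ratios of -0.18 and 0.02.

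The bases before the start of CHST15 and CHST7, the CHST genes with the largest differences, are shown because both were below the floor in undifferentiated cells and above it at both PMA times. The sequences are the 250 bases before the transcription start in RefSeq (GRCh38.p14), 5′ to 3′ on the gene's strand, and capitals mark GGGCGG on either strand, the letters bound by SP1.
CHST15 (chr10:124093599-124093848, minus strand): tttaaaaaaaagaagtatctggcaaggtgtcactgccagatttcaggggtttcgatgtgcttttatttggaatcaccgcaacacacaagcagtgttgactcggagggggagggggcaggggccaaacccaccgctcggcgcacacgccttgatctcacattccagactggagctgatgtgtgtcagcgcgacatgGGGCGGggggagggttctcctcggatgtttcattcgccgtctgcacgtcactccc
CHST7 (chrX:46573515-46573764, plus strand): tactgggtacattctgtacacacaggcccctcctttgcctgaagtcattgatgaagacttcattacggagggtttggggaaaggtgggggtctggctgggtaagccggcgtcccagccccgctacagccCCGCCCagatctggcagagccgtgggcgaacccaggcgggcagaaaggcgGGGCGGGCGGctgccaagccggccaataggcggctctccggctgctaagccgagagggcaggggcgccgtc

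GGGCGG stood in 60.2% of the 123 windows listed for 76 of the glycan enzyme genes, against 42.6% of 35116 such windows of all genes. The letters of AP-1 sites, through which phorbol esters are known to act, were searched as TGANTCA and stood in 4.88% of the glycan enzyme windows, against 6.57% of all. PU.1, a factor of myeloid cells, was searched as GAGGAAG and found in 13.8% of the glycan enzyme windows, against 11.2% of all. C/EBP was searched as TTGCNNAA and found in 8.94%, against 9.05% of all. TATAAA, the letters of the TATA box, stood anywhere in the window in 2.44%, against 10.7% of all, which is not a count of TATA boxes. From 40 to 20 bases before the start, on the gene's strand, it stood in 2.13% of all plus-strand and 2.37% of all minus-strand windows. Both strands were searched, and matches may overlap, as 2 of those before CHST7 do. The AP-1, PU.1, C/EBP and TATA letters were not in the windows of CHST15 and CHST7. Such matches describe the letters of these windows only.

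By their brightest probe sets, the other CHST genes were not called at PMA 3 or 8 days over undifferentiated. CHST11, CHST12 and CHST13, which sulfate chondroitin, had log2 ratios over undifferentiated of 0.45, -0.39 and -0.63 at PMA 3 days and of 0.38, -0.78 and -0.29 at PMA 8 days. A dimmer probe set of CHST12 was past 2-fold at PMA 8 days, at -1.17. CHST14, the dermatan sulfotransferase, had 1566 signal units in undifferentiated cells, 807 at PMA 3 days and 943 at PMA 8 days, log2 ratios of -0.96 and -0.73. CHST10, which sulfates the HNK-1 epitope, had log2 ratios of -0.78 and -0.44, and CHST5 of 0.44 and 0.82. CHST3, a chondroitin sulfotransferase, was near the floor with 262 signal units in undifferentiated cells, 78 at PMA 3 days and 300 at PMA 8 days. CHST4 reached 185 at PMA 8 days, and CHST6, CHST8 and CHST9 were above the floor on no array.

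Fucosyltransferases that passed 2-fold were all lower. FUT4, which adds fucose to make the Lewis x antigen of myeloid cells, had 10752 signal units in undifferentiated cells, 1493 at PMA 3 days and 1777 at PMA 8 days. Both PMA arrays were low, 7.20-fold below undifferentiated at PMA 3 days and 6.05-fold at PMA 8 days. Its other probe set had 2896 signal units in undifferentiated cells, 787 at PMA 3 days and 725 at PMA 8 days. FUT7, which completes sialyl Lewis x, the selectin ligand of leukocytes, had 784, 302 and 163 signal units in undifferentiated, PMA 3 days and PMA 8 days cells. It was 2.59-fold lower at PMA 3 days and 4.82-fold lower at PMA 8 days, and its dimmer probe set gave -0.68 and -0.58 on the log2 scale. FUT2, of the H blood group antigens, was dim and 2.06-fold and 2.35-fold lower, with 373, 181 and 159 signal units, and its other probe set, near the floor, gave -0.24 at both times. FUT8, which adds the core fucose of N-glycans, had log2 ratios of 0.59 and 0.78. FUT6 had -0.23 and 0.23, FUT1 and FUT3 were above the floor on 1 array each by no more than 0.19 on the log2 scale, and FUT5 and FUT9 were above it on none. Of the FUT genes compared, 0 of 7 were higher and 3 lower at PMA 3 days, and 0 of 6 higher and 3 lower at PMA 8 days. Over all genes 10.4% were higher and 10.7% lower at PMA 3 days, and 9.83% and 8.49% at PMA 8 days.

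The same window before the start is shown for the myeloid fucosyltransferases FUT4 and FUT7, the FUT genes with the largest differences.
FUT4 (chr11:94543671-94543920, plus strand): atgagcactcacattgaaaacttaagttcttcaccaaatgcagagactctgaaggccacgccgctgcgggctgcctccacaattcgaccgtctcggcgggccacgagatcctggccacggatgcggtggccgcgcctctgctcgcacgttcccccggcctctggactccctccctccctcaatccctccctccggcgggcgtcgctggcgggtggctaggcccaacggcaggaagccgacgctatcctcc
FUT7 (chr9:137032089-137032338, minus strand): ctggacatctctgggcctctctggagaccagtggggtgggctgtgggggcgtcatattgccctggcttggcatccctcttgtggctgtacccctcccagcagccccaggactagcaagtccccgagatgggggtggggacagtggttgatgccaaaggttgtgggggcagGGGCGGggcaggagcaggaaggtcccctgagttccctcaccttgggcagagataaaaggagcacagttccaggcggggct

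FUT7 had GGGCGG from 80 to 75 bases before the start and FUT4 had no match of the 5 motifs searched.

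**Figure D2:**
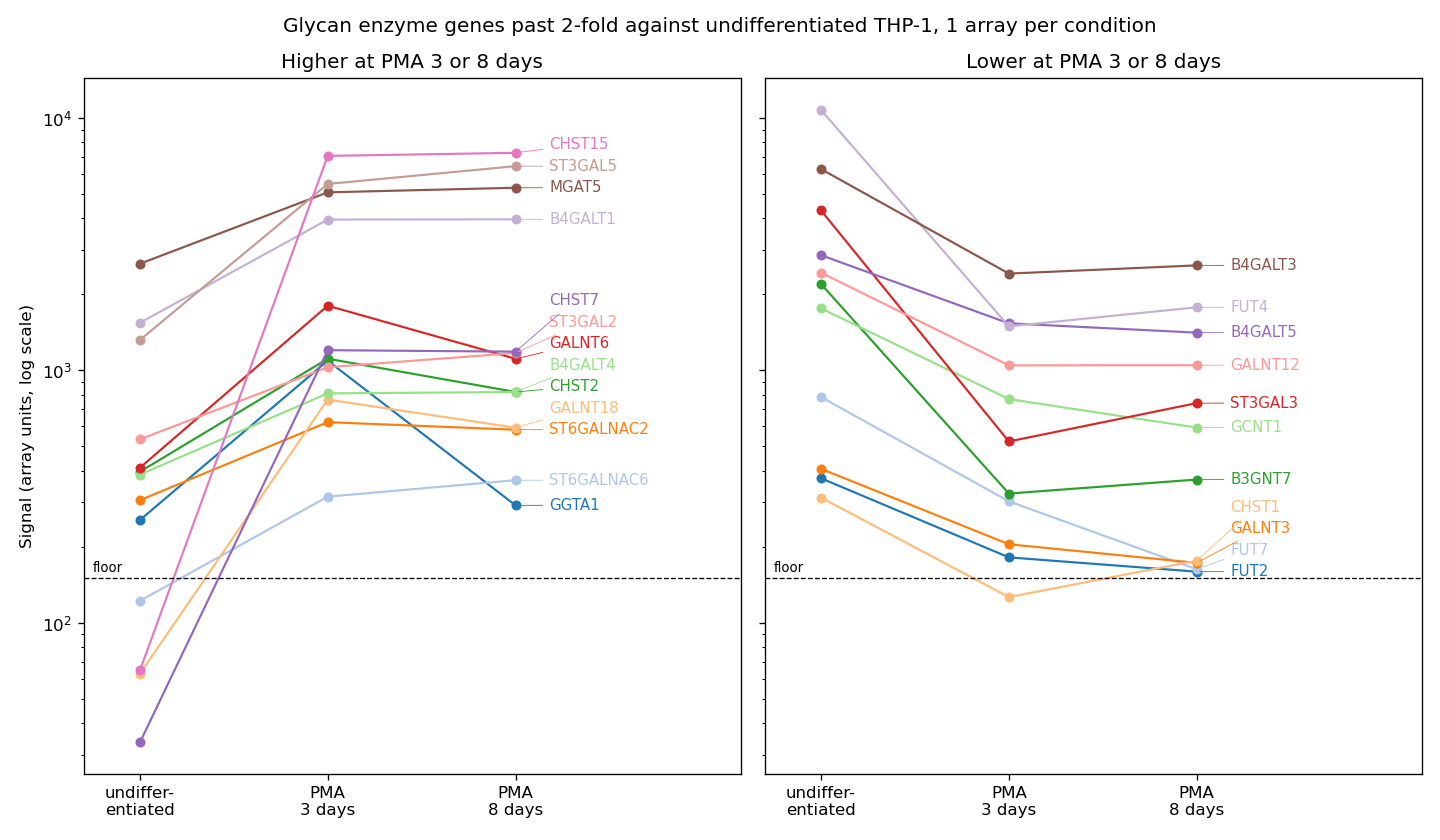
Signal in array units on a log axis for each glycan enzyme gene at least 2-fold different from undifferentiated at PMA 3 or 8 days, with 1 point per array and a dashed line at the floor of 149.8. CHST15 and CHST7 are below the floor in undifferentiated cells and far above it on both PMA arrays, FUT4, ST3GAL3 and B3GNT7 are low on both PMA arrays, and GGTA1 is high at PMA 3 days only.

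Sialyltransferases went both ways within the ST3GAL family. ST3GAL3, which caps galactose with sialic acid, had 4299 signal units in undifferentiated cells, 522 at PMA 3 days and 741 at PMA 8 days. It was 8.23-fold lower at PMA 3 days and 5.80-fold lower at PMA 8 days. Of its 6 probe sets above the floor in undifferentiated cells or at PMA 3 days, 4 were at least 2-fold lower at PMA 3 days. The log2 ratios of the 6 ran from -3.04 to 0.19, some of them with 1 array at the floor. At PMA 8 days 3 of the 5 above the floor there or in undifferentiated cells were lower. Another probe set had 967 signal units in undifferentiated cells, 395 at PMA 3 days and 1150 at PMA 8 days, so that it stood at 0.25. ST3GAL5, which makes the ganglioside GM3, had 1319, 5476 and 6442 signal units in the order of the conditions from undifferentiated to PMA 8 days. Both PMA arrays were high, 4.15-fold at PMA 3 days and 4.88-fold at PMA 8 days, by its sole probe set. ST3GAL2, which sialylates O-glycans and gangliosides, had 533, 1029 and 1171 signal units, 2.20-fold higher at PMA 8 days and at 0.95 on the log2 scale at PMA 3 days. At PMA 8 days its dimmer probe sets above the floor gave 0.53 to 0.61. ST3GAL1 had log2 ratios of 0.68 and 0.49, ST3GAL4 of -0.60 and 0.18, and ST3GAL6 of -0.43 and -0.38.

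Among enzymes that sialylate N-acetylgalactosamine or gangliosides, ST6GALNAC2 was 2.04-fold higher at PMA 3 days and had a log2 ratio of 0.93 at PMA 8 days, with 306, 623 and 582 signal units from undifferentiated to PMA 8 days. ST6GALNAC6, which acts on gangliosides, had 316 signal units at PMA 3 days and 367 at PMA 8 days and was below the floor in undifferentiated cells with 122, at least 2.11-fold and at least 2.45-fold higher. ST6GALNAC4 had log2 ratios of 0.08 and 0.43, ST6GALNAC3 and ST6GALNAC5 were just above the floor in undifferentiated cells alone, and ST6GALNAC1 was above it on no array. ST6GAL1, which caps N-glycans, had log2 ratios of 0.77 and 0.59. The ganglioside GD3 synthase ST8SIA1 was below the floor in undifferentiated cells with 35 signal units and had 208 at PMA 3 days and 293 at PMA 8 days, a log2 ratio over the floor of 0.97 at PMA 8 days. ST8SIA4, a polysialyltransferase, had log2 ratios of -0.04 and 0.25 and ST8SIA5 of 0.03 and -0.12. ST6GAL2, ST8SIA2 and ST8SIA3 were above the floor on no array.

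O-glycan starters also differed within the family. GALNT6 had 411 signal units in undifferentiated cells, 1803 at PMA 3 days and 1111 at PMA 8 days. It was 4.39-fold higher at PMA 3 days and 2.70-fold at PMA 8 days, and its other probe set gave log2 ratios of 1.36 and 0.90. GALNT18 was below the floor in undifferentiated cells with 63 signal units and had 765 at PMA 3 days and 592 at PMA 8 days, at least 5.11-fold and at least 3.95-fold higher, and its other probe set gave a log2 ratio of 0.32 at PMA 3 days. GALNT12 was lower, with 2437 signal units in undifferentiated cells, 1046 at PMA 3 days and 1047 at PMA 8 days (2.33-fold at both times), and its other probe set gave -1.45 and -1.51. GALNT3 had 407, 204 and 173 signal units and was 2.36-fold lower at PMA 8 days, while its other probe set had a log2 ratio of 0.08 at PMA 3 days. GALNT2, a broadly expressed starter, stayed under 2-fold by its brightest probe set (3233, 6386 and 5395 signal units, log2 ratios of 0.98 and 0.74), but 1 of its other probe sets had 535, 2075 and 2442 and another 434, 1911 and 2087. These gave log2 ratios of 1.96 and 2.14 at PMA 3 days and 2.19 and 2.27 at PMA 8 days, and the remaining probe set, near the floor, gave -0.39 and -0.66. GALNT1, GALNT7, GALNT10 and GALNT11 had log2 ratios between 0.02 and 0.35 at both times. A dimmer probe set of GALNT10 had 177, 284 and 405 signal units, log2 ratios of 0.68 and 1.20, and another gave -0.42 at PMA 3 days. GALNT16 had -0.87 and -0.91. GALNT14 was near the floor with 155 signal units in undifferentiated cells and 185 at PMA 8 days, and below it with 27 at PMA 3 days. GALNT5, GALNT8, GALNT9, GALNT13, GALNT15, GALNT17, GALNTL5 and GALNTL6 were above the floor on no array by their brightest probe set. A dimmer probe set of GALNT15 reached 159 at PMA 8 days.

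**Figure D3:**
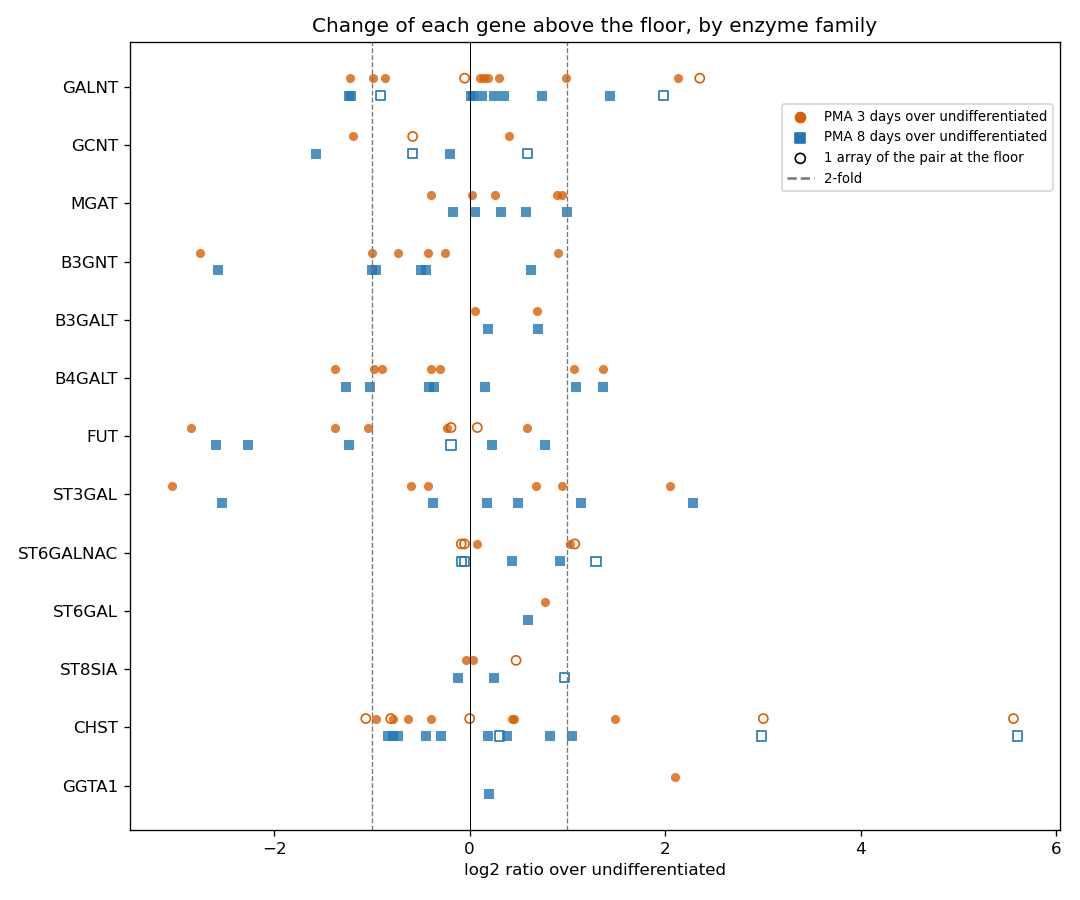
Log2 ratio over undifferentiated at PMA 3 days (orange circles) and PMA 8 days (blue squares) of each gene above the floor on either array of the comparison, by enzyme family, with open symbols where 1 array of the pair was at the floor and dashed lines at 2-fold. The FUT, GCNT and B3GNT rows reach past 2-fold on the left only, the CHST row reaches farthest to the right, and ST3GAL, GALNT and B4GALT have genes on both sides.

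Branching and extension enzymes were followed next. GCNT1, which branches O-glycans so that they can carry selectin ligands, had 1760 signal units in undifferentiated cells, 769 at PMA 3 days and 593 at PMA 8 days. It was 2.29-fold and 2.97-fold lower at PMA 3 and 8 days, and its other probe set gave log2 ratios of -0.56 and -1.01. GCNT2, which branches lactosamine chains, had 0.40 and -0.20. GCNT7 and GCNT1P1, both listed as pseudogenes, were above the floor on 1 array each, and GCNT3 and GCNT4 on none. Among the N-glycan branching enzymes 0 of 5 compared genes passed 2-fold at PMA 3 days and 1 of 5, MGAT5, at PMA 8 days. Over all genes 21.1% passed 2-fold in either direction at PMA 3 days and 18.3% at PMA 8 days. MGAT5, which adds the branch that galectins bind well once it is extended, had 2645 signal units in undifferentiated cells, 5073 at PMA 3 days and 5290 at PMA 8 days, log2 ratios of 0.94 and 1.00, so that it lay at the threshold. MGAT1, which opens the way to complex chains, had 0.90 and 0.58. MGAT2, MGAT4A and MGAT4B had log2 ratios between -0.39 and 0.32, although a dimmer probe set of MGAT4A was past 2-fold higher at both times (log2 ratio of 1.20 at PMA 8 days). The genes MGAT3, MGAT4C, MGAT4D, MGAT5B and the pseudogene MGAT4EP were above the floor on no array.

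B3GNT7, which extends keratan sulfate chains, had 2198 signal units in undifferentiated cells, 325 at PMA 3 days and 369 at PMA 8 days. Both PMA arrays were low, 6.77-fold and 5.96-fold below undifferentiated. A second probe set had 1671, 179 and 316 signal units and log2 ratios of -3.23 and -2.40, and the 2 others were near the floor. B3GNT5, which starts lacto-series glycolipids, had log2 ratios of -0.74 and -0.95, B3GNT2, the main enzyme of lactosamine chains, -0.25 and -0.45, and B3GNT9 0.90 and 0.63. B3GNT8 had 448, 224 and 318 signal units and was just short of 2-fold lower at PMA 3 days, and B3GNT4 had 379, 281 and 190 and was just short of it at PMA 8 days. B3GNT3 and B3GNT6 were above the floor on no array.

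B4GALT1, the main enzyme that adds galactose to N-glycans, had 1543 signal units in undifferentiated cells, 3957 at PMA 3 days and 3966 at PMA 8 days, 2.57-fold higher at both times. A dimmer probe set, below the floor in undifferentiated cells, gave log2 ratios of at least 1.21 and at least 0.90. Another gave at least 0.81 at PMA 3 days, and the rest were above the floor on no array. B4GALT3, of the same activity, had 6271, 2417 and 2605 signal units and was 2.59-fold lower at PMA 3 days and 2.41-fold lower at PMA 8 days. B4GALT4, which acts on sulfated chains, had 386, 810 and 821 signal units and was 2.10-fold and 2.13-fold higher. Its other probe set gave log2 ratios of 0.26 at PMA 3 days and -0.42 at PMA 8 days. The lactosylceramide synthase B4GALT5 had 2859, 1535 and 1410 signal units, a log2 ratio of -0.90 at PMA 3 days, and was 2.03-fold lower at PMA 8 days. Its other probe set had 1487, 666 and 1111 signal units and was past 2-fold at PMA 3 days instead, with log2 ratios of -1.16 and -0.42. B4GALT6, the related synthase, had -0.40 and -0.42, B4GALT2 had -0.98 and -0.36, and B4GALT7, of the linker of proteoglycans, -0.30 and 0.16. B3GALT4, the ganglioside GM1 synthase, had 0.68 and 0.70, and B3GALT6, which adds galactose to the same linker, 0.05 and 0.19. A dimmer probe set of B3GALT6 had 1663, 860 and 1024 signal units and went the other way, with log2 ratios of -0.95 and -0.70. B3GALT1, B3GALT2 and B3GALT5 were above the floor on no array.

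By brightest probe sets, GGTA1 was the gene that differed by 2-fold between the PMA times. In most mammals its enzyme makes the alpha-gal epitope, and the human gene is known not to make it, though RefSeq lists it as protein coding. It had 255 signal units in undifferentiated cells, 1092 at PMA 3 days and 292 at PMA 8 days, by its sole probe set. The PMA 3 days array was high and the other 2 were close to each other. GGTA1 was 4.28-fold higher at PMA 3 days than in undifferentiated cells, and at PMA 8 days it was 3.74-fold lower than at PMA 3 days and had a log2 ratio of 0.19 over undifferentiated. GGGCGG lies from 58 to 53 bases before its start, and no other motif searched was present in the window. Its 250 bases before the start are shown because GGTA1 was the 1 gene past 2-fold between the PMA times by brightest probe set.
GGTA1 (chr9:121499845-121500094, minus strand): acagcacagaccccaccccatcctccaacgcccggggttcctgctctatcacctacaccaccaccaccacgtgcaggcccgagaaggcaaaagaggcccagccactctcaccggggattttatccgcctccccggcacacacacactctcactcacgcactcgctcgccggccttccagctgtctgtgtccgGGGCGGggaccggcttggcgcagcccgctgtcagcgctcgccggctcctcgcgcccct

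After it the largest differences between the PMA times by brightest probe sets were those of CHST3, FUT7 and ST3GAL4. CHST3 had a log2 ratio of 1.00, just short of 2-fold and with the PMA 3 days array below the floor. FUT7 was at -0.89 and ST3GAL4 at 0.77. A dimmer probe set of ST3GAL3 was past 2-fold. It had 395 signal units at PMA 3 days and 1150 at PMA 8 days, a log2 ratio of 1.54.

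Probe sets of the same gene often differed in size. At PMA 3 days 13 of the 20 genes past 2-fold had several probe sets above the floor on either array of the comparison. In 11 of the 13 all of them pointed the same way, and in 3 (FUT4, GALNT6 and GALNT12) all were past 2-fold. At PMA 8 days 11 of 13 genes had all probe sets pointing the same way and in 3 (FUT4, GALNT12 and GCNT1) all were past 2-fold. The log2 ratios of the probe sets of a gene spanned a median of 0.61 at PMA 3 days and 0.60 at PMA 8 days over 38 glycan genes. The widest spans were 5.34 and 4.95, both for CHST15. Both of its probe sets were below the floor in undifferentiated cells and above it at both PMA times. Its ratios are therefore lower bounds, and these spans depend on the floor. At PMA 3 days B3GNT7 and ST3GAL3 were the genes past 2-fold with a probe set on the other side of 0.

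**Figure D4:**
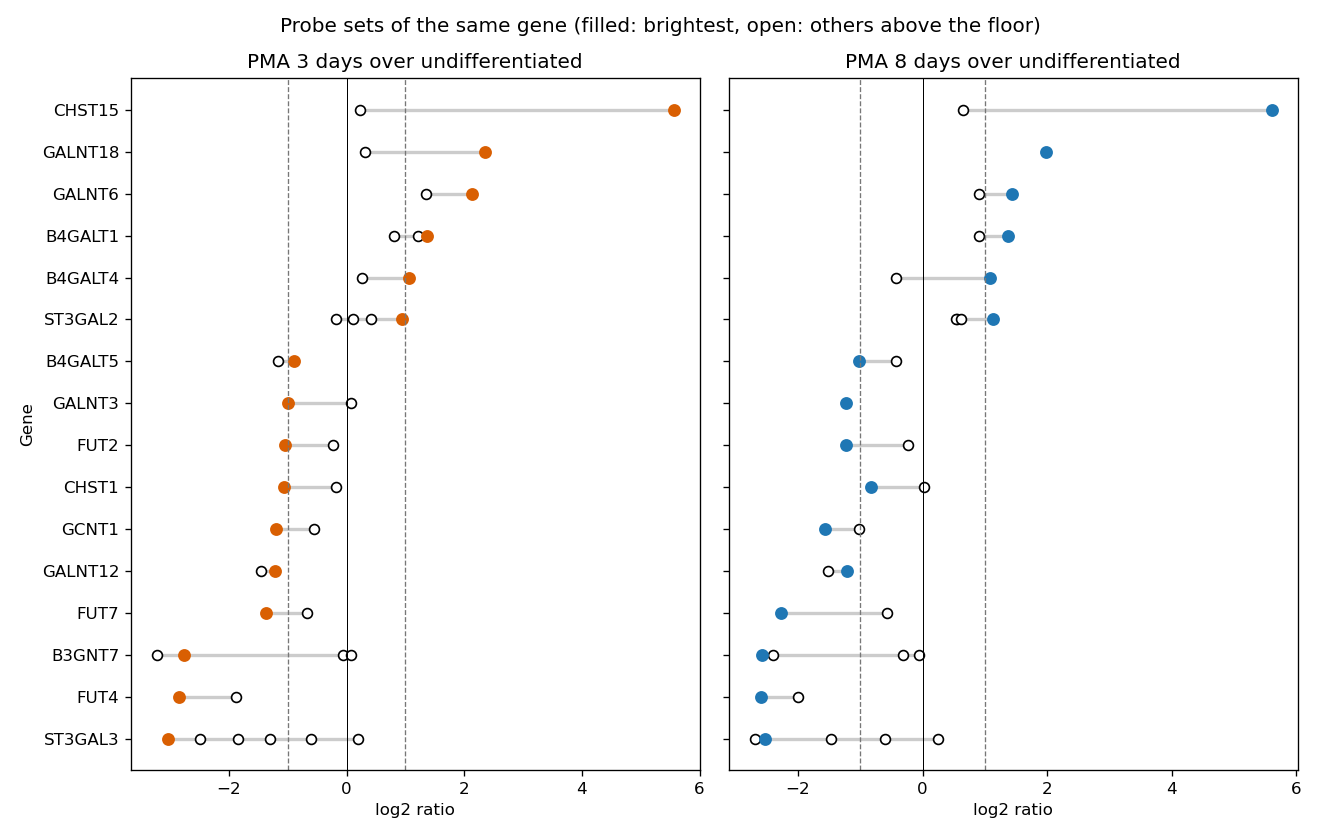
Log2 ratio of each probe set above the floor on either array of the comparison, for the glycan enzyme genes past 2-fold with several such probe sets, for PMA 3 days over undifferentiated (left) and PMA 8 days over undifferentiated (right), with filled points for the brightest probe set of the gene and dashed lines at 2-fold. The open points are nearer 0 than the filled one for most genes, by the most for CHST15. Its undifferentiated signals were below the floor, so that its ratios are lower bounds.

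Other genes of glycan synthesis were counted from lists, and each count stands against 10.4% higher and 10.7% lower over all genes at PMA 3 days and 9.83% and 8.49% at PMA 8 days. Of 23 compared genes of glycosaminoglycan chains that the name rule leaves out, 9 were higher and 1 lower at PMA 3 days, with a median log2 ratio of 0.68. At PMA 8 days 10 of 24 were higher and 0 lower, with a median of 0.76. HS3ST3A1, which sulfates heparan, was below the floor in undifferentiated cells with 68 signal units and had 3271 at PMA 3 days and 3421 at PMA 8 days, at least 21.8-fold and at least 22.8-fold higher. DSE, the epimerase that makes dermatan from chondroitin, was 8.99-fold higher at PMA 3 days and 7.59-fold higher at PMA 8 days, and the heparan sulfotransferase HS3ST3B1 5.89-fold and 6.77-fold. HS3ST1 was at least 6.31-fold higher at PMA 3 days, and UST, a sulfotransferase of dermatan and chondroitin, 5.17-fold higher at PMA 8 days. Among 22 genes of sugar nucleotide and sulfate donor synthesis 4 were higher and 2 lower at PMA 3 days (median -0.03), and among 23 also 4 and 2 at PMA 8 days (median -0.14). PAPSS1 and PAPSS2, which make the sulfate donor of all sulfotransferases, were 6.27-fold and 3.40-fold higher at PMA 3 days and 6.71-fold and 3.33-fold higher at PMA 8 days. NAGK, which recovers N-acetylglucosamine, was 3.84-fold and GFPT1, of hexosamine synthesis, 2.99-fold higher at PMA 3 days. GMDS, of the fucose donor, was 2.47-fold lower at PMA 3 days and 2.12-fold lower at PMA 8 days. GALK1 was lower as well, 2.32-fold and 2.55-fold.

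The counts of the next lists stand beside the same all-gene shares, 10.4% higher and 10.7% lower at PMA 3 days and 9.83% and 8.49% at PMA 8 days. Transporters of these donors into the Golgi had 0 of 11 genes past 2-fold at either PMA time, with medians of 0.22 and 0.15. Genes of the N-glycan precursor and its transfer to protein had 1 of 25 higher and 0 lower at both times, ALG14 at 2.19-fold and 2.26-fold. Of 12 N-glycan trimming genes 2 were higher and 2 lower at PMA 3 days, among them the mannosidase MAN1A1 at 3.56-fold higher and EDEM1 at 2.53-fold lower, and 1 higher and 1 lower at PMA 8 days, again these genes (5.92-fold higher and 3.06-fold lower). Other glycosyltransferases were 4 higher and 4 lower of 26 at PMA 3 days (15.4% each, median 0.02) and 4 higher and 3 lower of 27 at PMA 8 days (14.8% and 11.1%, median 0.27). UGCG, which makes glucosylceramide, the base of gangliosides, was 2.02-fold higher at PMA 3 days and 2.28-fold higher at PMA 8 days. B4GAT1, of dystroglycan chains, was 3.07-fold and 3.01-fold higher, and GXYLT1 3.19-fold and 2.65-fold lower. Exoglycosidases and sulfatases, which degrade these chains, were higher for 8 of 21 genes and lower for 0 at PMA 3 days (median 0.40), and higher for 7 and lower for 1 of 21 at PMA 8 days (median 0.25). SGSH, a heparan sulfatase, was 6.09-fold and 4.76-fold higher and the sialidase NEU1 3.40-fold and 2.57-fold. SULF2, which trims sulfate from heparan, was 2.58-fold lower at PMA 8 days.

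Lectins that bind these chains were higher for 7 of 21 genes (33.3%) and lower for 0 at both times (medians 0.54 and 0.39). The counts of lectins and carriers again stand beside 10.4% higher and 10.7% lower over all genes at PMA 3 days. At PMA 8 days the all-gene shares were 9.83% and 8.49%. The sialic acid receptor SIGLEC7 was 7.92-fold and 5.22-fold higher, and the galectin LGALS3 2.73-fold and 2.48-fold. Carriers of glycans went both ways, 6 of 20 higher and 5 lower at PMA 3 days (median 0.17) and 7 higher and 4 lower at PMA 8 days (median 0.26). SDC2, a heparan sulfate proteoglycan, was 6.23-fold and 6.34-fold higher. VCAN, the chondroitin sulfate proteoglycan versican, had 25970 signal units in undifferentiated cells, 4456 at PMA 3 days and 2028 at PMA 8 days, 5.83-fold and 12.8-fold lower. The sialoglycoprotein SPN was 2.37-fold and 2.04-fold lower.

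**Figure D5:**
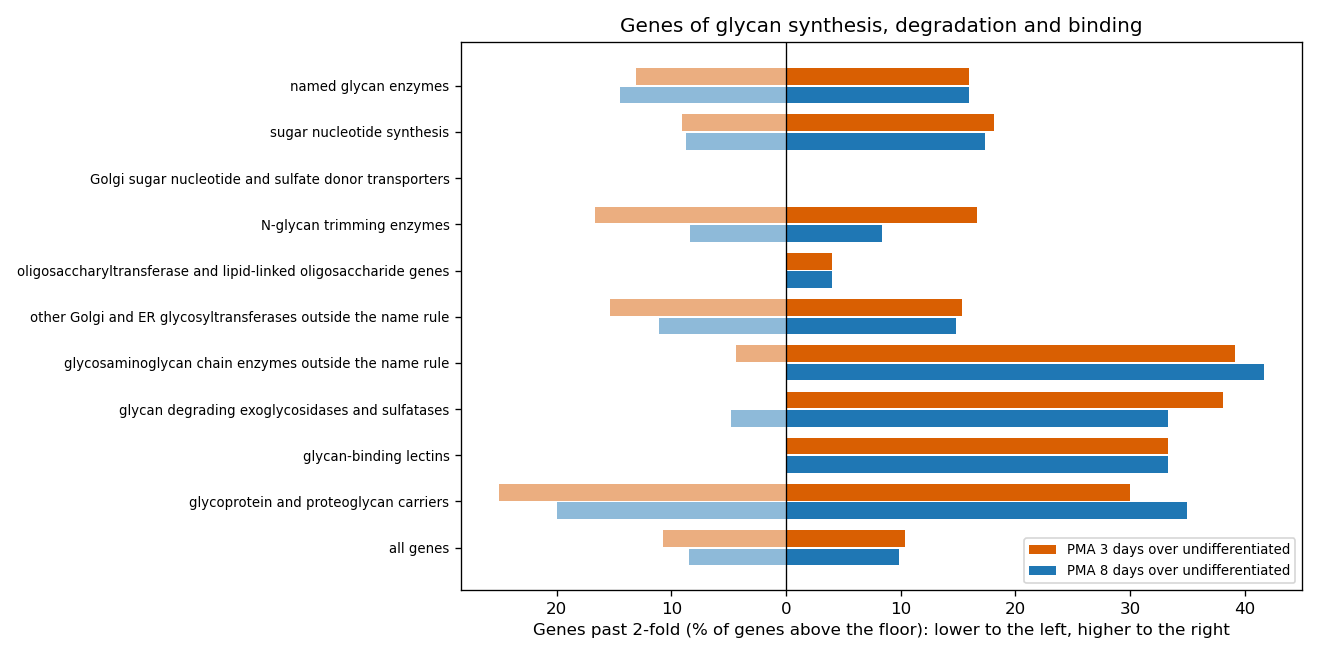
Percent of compared genes at least 2-fold lower (pale bars, left) or higher (full bars, right) at PMA 3 days (orange) and PMA 8 days (blue) over undifferentiated, for the glycan enzyme genes, lists of other glycan genes and all genes. Glycosaminoglycan chain genes have the longest bar to the right, 41.7% at PMA 8 days, and Golgi donor transporters have no bar.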

How the data were processed

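The series held 3 arrays, 1 per condition. Biotin-labelled cRNA was made from 200 ng of total RNA, per the labels' protocols. The intensity values as deposited are linear MAS5 signals per probe set, per the submitters' processing notes, and the version and settings of MAS5 are not given in the sources used here.

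Of 54675 probe sets 62 are controls, and 41091 are listed with 1 gene in the platform annotation. Symbols were checked by Entrez ID against RefSeq (GRCh38.p14), which changed 0 of them and matched 99 of the 99 glycan enzyme genes. Left out were 3 probe sets listed with several genes and 11 of 6 opposite-strand genes (names ending in AS or DT). A gene is represented by its brightest probe set, and 66 of the 99 genes had several. Ratios over the floor, at the 50th percentile of all signals without controls, were called at 2-fold, with no p-values. The members and lists were chosen with earlier results of these data known. Every member is named, and from each list up to 4 genes per comparison with the largest ratios past 2-fold could be. GALK1, GMDS, LGALS3, SPN and UGCG fall outside that rule and were chosen after their values were seen. 9 other settings were tried. The ratio and call steps were tested on simulated data. Python 3.11.15, numpy 2.4.6, pandas 2.3.3 and matplotlib 3.10.9 were used.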

Additional observations from a re-analysis of the deposited data

How the results depend on the processing

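Ratios were recomputed under the 9 alternatives for the 24 members past 2-fold in any of the 3 comparisons, not for the other members. Of these ratios, 503 moved by less than the SD between probe sets of a gene, 97 by more, and 2 reversed. The second-brightest probe set moved 32 of 45 ratios by more than that SD and the median over probe sets 29 of 72. The 3 scalings moved 0 of 72 each. Setting the median of all genes to 0 and poly-A control scaling shift all ratios of a comparison by about the same amount, less than that SD. For them the 0 was thus fixed in advance and does not show that scaling had no effect. With second-brightest probe sets 6 of 15 calls at PMA 3 days and 5 of 18 at PMA 8 days over undifferentiated were kept, and CHST15, FUT7 and GALNT18 were among those lost at both times. With the median 13 of 20 and 10 of 21 were kept. Among those lost were B4GALT1 at both times and ST3GAL3 at PMA 8 days. The scalings each kept 17 or 18 of 20 calls at PMA 3 days and 18 or 20 of 21 at PMA 8 days, and MGAT5, B4GALT4, B4GALT5, CHST1, CHST2, FUT2, ST6GALNAC2 and ST6GALNAC6 were lost at 1 or both times under at least 1 of them. Both reversals were B4GALT4 at PMA 8 days over undifferentiated, at -0.42 with its second-brightest probe set and with probe sets ending in _s_at or _x_at left out. With no filter and no floor, which takes in all 99 genes, 18 were lower at PMA 3 days over undifferentiated, 19 higher at PMA 8 days over undifferentiated, and 13 higher and 6 lower at PMA 8 days over PMA 3 days. Poly-A control scaling gave 17 lower at PMA 3 days over undifferentiated and 1 higher at PMA 8 days over PMA 3 days, as quantile normalization also did (1), and a floor at the 40th percentile gave 2 higher there. Second-brightest probe sets were compared for 38 or 39 genes. Over undifferentiated they gave 4 higher and 5 lower at PMA 3 days, beside 9.70% and 9.95% of all genes. At PMA 8 days over undifferentiated they gave 3 higher and 6 lower, beside 9.08% and 8.57%. At PMA 8 days over PMA 3 days 0 were lower, beside 0.858%, since GGTA1 has 1 probe set. The median over probe sets gave 6 higher and 5 lower at PMA 8 days over undifferentiated, beside 6.84% and 6.10% of all genes. Without _s_at and _x_at probe sets 7 of 55 were higher there, beside 9.51%. The cause was not tested apart from the number of genes compared. All other counts of higher and lower genes stayed within 1.5 times. The median log2 ratio of all genes moved from -0.12 to -0.39 at PMA 3 days and to -0.17 at PMA 8 days over undifferentiated under poly-A control scaling, and to 0.22 between the PMA times. No paired analysis was possible because each condition has 1 array. Signals near the floor limit what can be read of dim genes such as CHST1, CHST3, FUT2 and ST6GALNAC6.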

Other observations

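ST3GAL3-AS1, listed as antisense to ST3GAL3 and left out by the name rule, had 1246 signal units in undifferentiated cells and was below the floor with 145 at PMA 3 days and 148 at PMA 8 days, at least 8.32-fold lower at both times. The 2 probe sets of FUT8-AS1 went opposite ways at PMA 3 days, at 330 against 159 signal units and at 289 against 372 (PMA 3 days against undifferentiated). Both genes were picked out after their values were seen.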
